A study of Mus musculus with 12 samples.

Results

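Expression of 10 genes that make or break down ceramide was examined in RNA-seq counts of the adrenal cortex of 12 mice. The genes were listed by symbol and found by their Ensembl identifiers among the 49585 genes of the count tables, each matching 1 identifier. They encode the paired subunits of serine palmitoyltransferase (*Sptlc1* and *Sptlc2*), ceramide synthases (*Cers2*, *Cers4*, *Cers5*, and *Cers6*), and ceramidases (*Acer2*, *Acer3*, *Asah1*, and *Asah2*). Of the mice, 4 were fed a low-fat diet (LFD, called Normal Diet in the labels), 4 a high-fat diet (HFD), both for 20 weeks, and 4 the HFD with icosapent ethyl, the ethyl ester of eicosapentaenoic acid, mixed into it during the last 10 of the 20 weeks. The methods of the study describe male wild-type C57BL/6J mice that were 6 weeks old at the start, whereas the labels of all 12 mice give the genotype *Fads2*-/-. The paper's own *Fads2*-/- mice were females on other diets, and it reports checking the loss of *Fads2* mRNA in their adrenal glands. *Fads2* was expressed in every mouse of the present 12, with 452 to 2182 CPM (counts per 1000000 of the library size after TMM normalization), and the genotype could not be settled further from the counts. Mice are named by the replicate numbers of the labels.

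Ceramide is the central intermediate of sphingolipid metabolism. Serine palmitoyltransferase starts its synthesis from serine and palmitoyl-CoA, ceramide synthases add a fatty acid whose length depends on the synthase, and ceramidases split ceramide into sphingosine and a fatty acid. In steroid-producing cells, sphingolipids are known both as membrane components and as signals that act on the transcription of steroidogenic genes, in part through sphingosine, a ligand of the steroidogenic factor Nr5a1.

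Every member was measured well above the filter on low counts. A single library held between 154 counts (for *Cers6*) and 24005 counts (for *Cers2*) of a member, and total counts on genes were between 34785979 and 67295963 per mouse. The defining markers of the cortex (*Star*, *Cyp11a1*, *Cyp11b1*, *Cyp21a1*, *Nr5a1*, and *Mc2r*) were abundant in each mouse, summing to between 28026 and 76443 CPM, and the 7 markers of the chromaffin cells of the medulla were also present in each, summing to between 2436 and 17678 CPM. In bulk tissue, fewer cells of a type and less RNA per cell cannot be told apart.

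Levels of different genes were compared per kilobase of exon. The ceramide synthase *Cers2*, which makes very long chain ceramides, had the highest level, with a median over the 12 mice of 92.9 CPM per kilobase, followed by the lysosomal acid ceramidase *Asah1* at 47.1 and *Sptlc1* at 30.3. *Cers5* and *Sptlc2* were next, at 23.8 and 23.7 CPM per kilobase, and these neighbors could not be ordered, since *Cers5* was the higher in 6 of 12 mice. The neutral ceramidase *Asah2* had 4.87 CPM per kilobase and the Golgi alkaline ceramidase *Acer2* 3.75, an order seen in 10 of 12 mice. *Cers4* followed at 2.17, the alkaline ceramidase *Acer3* at 1.36, and *Cers6* was the lowest at 0.518 CPM per kilobase. *Acer2* exceeded *Cers4* in 11 of 12 mice and *Cers4* exceeded *Acer3* in 10 of 12, and all other neighbors kept their order in all 12 mice. The same order was found with the longest coding transcript of each gene as its length.

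The sequences upstream of the transcription start are shown for the serine palmitoyltransferase subunits, for *Cers2*, which varied together with *Sptlc1* among the mice, and for *Acer2*, the member with the lowest p in the icosapent ethyl comparison. They are RefSeq sequences of the genome build GRCm38.p6, written 5′ to 3′ on the strand of the gene, and cover those of the 250 bases before the RefSeq start that lie on no annotated exon of the gene. Capitals mark the GC box (GGGCGG), the CCAAT box, the E-box (CACGTG), and the core of the cAMP response element (TGACG), each read on both strands. The *Sptlc1* stretch is chr13:53377398-53377611 on the minus strand, that of *Sptlc2* chr12:87388356-87388605 on the minus strand, that of *Cers2* chr3:95314940-95315083 on the plus strand (the first of its RefSeq starts), and that of *Acer2* chr4:86874164-86874395 on the plus strand.
Sptlc1: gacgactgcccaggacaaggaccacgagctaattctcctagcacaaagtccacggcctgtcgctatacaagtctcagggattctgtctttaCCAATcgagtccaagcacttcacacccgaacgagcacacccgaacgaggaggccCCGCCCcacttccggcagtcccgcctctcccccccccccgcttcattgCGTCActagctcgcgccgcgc
Sptlc2: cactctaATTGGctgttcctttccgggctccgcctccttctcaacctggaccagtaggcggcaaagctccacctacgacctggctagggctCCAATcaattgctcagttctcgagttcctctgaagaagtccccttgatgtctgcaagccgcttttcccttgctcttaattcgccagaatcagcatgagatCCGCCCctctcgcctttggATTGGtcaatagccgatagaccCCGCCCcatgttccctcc
Cers2: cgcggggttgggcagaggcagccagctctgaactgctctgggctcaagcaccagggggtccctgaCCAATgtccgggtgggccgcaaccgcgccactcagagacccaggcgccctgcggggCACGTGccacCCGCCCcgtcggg
Acer2: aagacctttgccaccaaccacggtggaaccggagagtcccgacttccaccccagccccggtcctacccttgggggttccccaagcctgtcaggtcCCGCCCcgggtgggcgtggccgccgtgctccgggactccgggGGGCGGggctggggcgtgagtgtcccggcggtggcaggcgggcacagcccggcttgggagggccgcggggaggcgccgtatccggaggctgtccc

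RefSeq windows of 250 bases were found for 9 of the 10 members and were searched whole for 6 motifs on both strands. The GC box GGGCGG was in a window of 7 of these 9 members and in 32.7% of 32851 mouse windows of the same length. The CCAAT box was in those of 4 members (33.8% of all windows), the TGACG core in those of 3 (17.8%), and the E-box in those of *Cers2* and *Cers6* (6.02%). The Nr5a1 motif CAAGGTCA (1.33%) and TATAAA (12.4%) were in none. The 9 members had 11 windows, *Cers2* and *Acer3* having more than 1, and a member was counted if any of its windows held the motif. For *Acer3*, the GC box and the TGACG core were only in the window at chr7:98309543-98309792. The first 30 bases from that RefSeq start were held by 0 annotated transcripts, and the other *Acer3* window had none of the motifs. The shares of all windows are per window, so the values are not directly comparable. GC content of the member windows was 46.8% to 74.8%, and the median of all windows was 52.4%. Whether motifs were enriched was not tested. No stretch is shown for *Cers4*, whose longest stretch off its own exons was 29 bases.

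**Figure D1:**
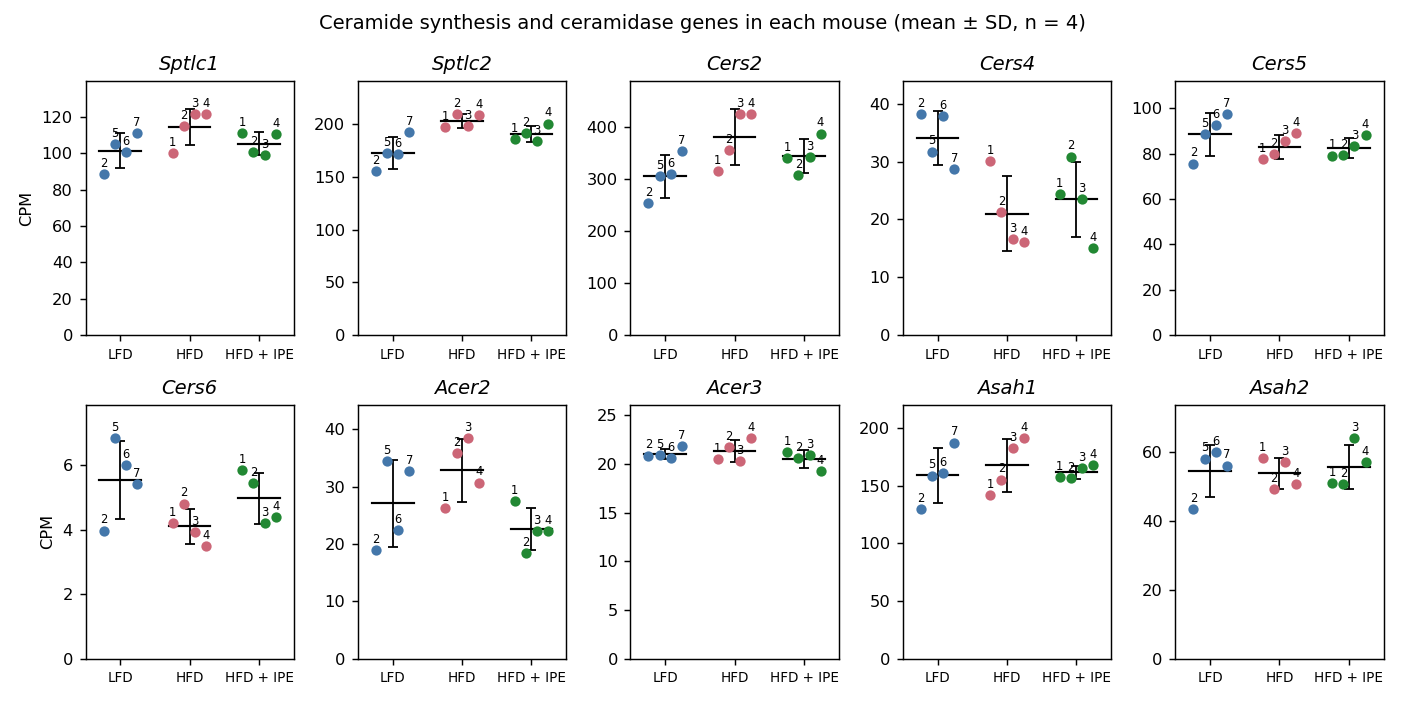
CPM of each member in each mouse, with an axis from 0; points are mice with their replicate numbers, and black lines show the mean ± SD of 4 mice. HFD + IPE denotes the icosapent ethyl group. *Cers4* was lowest in HFD mice 3 and 4 and in icosapent ethyl-treated mouse 4, and *Sptlc2* was higher in every HFD mouse than in every LFD mouse.

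The first comparison was of HFD with LFD mice. *Cers4* had a lower mean and *Sptlc2* and *Cers2* had higher means in the HFD group, but no member passed an adjusted p of 0.05 (edgeR, quasi-likelihood test), where 1.45% of 15909 genes tested did, and 1 member, *Cers4*, passed with DESeq2, which called 12.3% of all genes. At an unadjusted p below 0.05 there were 3 members, *Cers4*, *Sptlc2*, and *Cers2*, beside 24.8% of all genes. Groups without overlap were seen for 1 member, *Sptlc2*, which was higher in HFD mice as were 7.71% of all genes, and for no member in the lower direction, beside 5.82%. The median log2 fold change of the 10 members was 0.039 and that of all genes tested was -0.015.

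*Sptlc2*, the catalytic subunit of serine palmitoyltransferase, stood at 156, 173, 172, and 193 CPM in LFD mice 2, 5, 6, and 7 and at 197, 210, 199, and 209 CPM in HFD mice 1 to 4. The lowest HFD mouse was just above the highest LFD mouse, LFD mouse 7. Their means of 173 ± 15.1 and 204 ± 6.58 CPM (SD, n = 4) differed by 0.23 on the log2 scale, with an SE of 0.074 (edgeR, adjusted p = 0.120). *Sptlc1*, the partner subunit, was at 88.7, 105, 101, and 111 CPM in LFD mice and at 100.03, 115, 122, and 122 CPM in HFD mice. These groups overlapped, LFD mice 5, 6, and 7 being above HFD mouse 1, and the log2 fold change was 0.17 with an SE of 0.091 (edgeR, adjusted p = 0.285). The *Sptlc1* level per kilobase was between 1.16 and 1.40 times that of *Sptlc2* in every mouse, with group means of 1.34 ± 0.038 in LFD, 1.28 ± 0.103 in HFD, and 1.26 ± 0.072 in icosapent ethyl-treated mice.

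*Cers4*, a synthase of long chain ceramides, had the largest difference of the 10 members in this comparison. It was at 38.2, 31.7, 37.9, and 28.7 CPM in LFD mice 2, 5, 6, and 7 and at 30.1, 21.3, 16.6, and 16.1 CPM in HFD mice 1 to 4. HFD mice 2, 3, and 4 lay below all LFD mice, and HFD mouse 1 lay above LFD mouse 7. On average it was at 34.1 ± 4.70 CPM in the LFD and 21.03 ± 6.51 CPM in the HFD group, a log2 difference of -0.71 with an SE of 0.21 (edgeR, adjusted p = 0.1004). With DESeq2 the log2 fold change was -0.70 (adjusted p = 0.0247), and without HFD mouse 1, where 5.70% of all genes passed, it was -0.94 in edgeR (adjusted p = 0.0276), so that the call depended on the tool and on that mouse. The 3 genes whose pattern over the 12 mice was most like that of *Cers4*, among 10900 genes with a mean of at least 5 CPM, were *Sytl4*, *Rasl10b*, and *Gga2*, with mean absolute differences of 0.072, 0.088, and 0.09999 between centered log2 CPM.

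*Cers2* was at 254, 306, 309, and 354 CPM in LFD mice 2, 5, 6, and 7 and at 316, 356, 425, and 425 CPM in HFD mice 1 to 4. LFD mouse 7 was above HFD mouse 1, and HFD mice 3 and 4 were the highest of all 12 mice. The log2 fold change was 0.31 with an SE of 0.12 (edgeR, adjusted p = 0.173). *Cers6*, which makes ceramides of long chains like those of *Cers5*, had 3.97, 6.84, 5.99, and 5.39 CPM in LFD mice and 4.19, 4.80, 3.92, and 3.48 CPM in HFD mice. LFD mouse 2 fell within the HFD range and the other LFD mice lay above it, with a log2 fold change of -0.44 and an SE of 0.20 (edgeR, adjusted p = 0.215). *Cers5* was at 75.6 to 97.5 CPM in the LFD and 77.6 to 89.1 CPM in the HFD group, and its log2 fold change was -0.10 (95% confidence interval -0.30 to 0.10).

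None of the 4 ceramidases had an unadjusted p below 0.05 in this comparison (edgeR). *Acer2* was at 19.0, 34.5, 22.5, and 32.7 CPM in LFD mice 2, 5, 6, and 7 and at 26.3, 35.9, 38.5, and 30.7 CPM in HFD mice 1 to 4, with overlap and a wide spread among LFD mice (log2 fold change 0.27, SE 0.20, edgeR adjusted p = 0.438). *Asah1* ranged from 129 to 187 CPM in the LFD group and from 141 to 191 CPM in the HFD group (log2 fold change 0.069, 95% confidence interval -0.22 to 0.35). For *Asah2* the ranges were 43.5 to 60.1 and 49.4 to 58.3 CPM (log2 fold change -0.022, interval -0.28 to 0.23). *Acer3* had the narrowest range of the members, 19.3 to 22.7 CPM over all 12 mice, and a log2 fold change of 0.0079 (interval -0.19 to 0.21). The directions of *Asah1*, *Asah2*, and *Acer3* turned when single mice were left out, and those of *Asah1* and *Acer3* also with library totals as scaling.

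**Figure D2:**
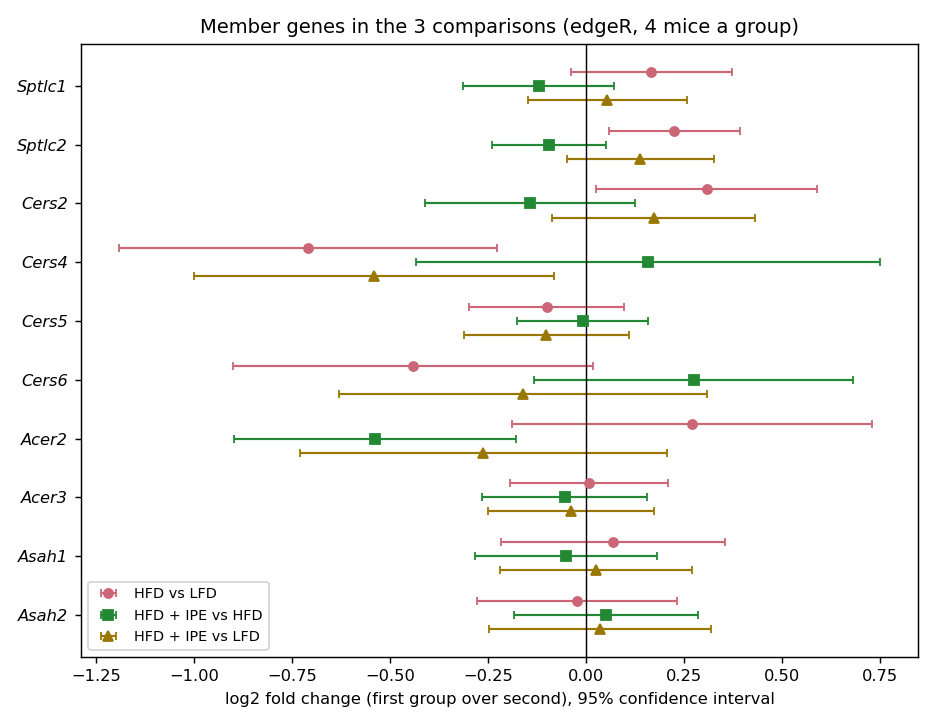
Log2 fold changes of the 10 members with 95% confidence intervals (edgeR, 4 mice a group) for HFD versus LFD (circles), icosapent ethyl-treated versus HFD (squares), and icosapent ethyl-treated versus LFD mice (triangles). The largest values are those of *Cers4* in the comparisons with LFD mice, -0.71 and -0.54, and of *Acer2* after icosapent ethyl, -0.54; no member passed the adjusted threshold.

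The make-up of the ceramide synthase transcripts was then compared, as the share of each synthase in the summed CPM per kilobase of the 6 synthase genes (*Cers1* to *Cers6*). *Cers2* took 74.0% ± 1.29 in LFD and 79.7% ± 1.98 in HFD mice (SD, n = 4), and the groups, 72.8% to 75.7% and 77.1% to 81.5%, did not overlap. *Cers5* took 22.3% ± 0.488 in LFD mice, in a narrow range from 21.6% to 22.8%, and 18.2% ± 1.14 in HFD mice, from 17.0% to 19.6%, again without overlap. The share of *Cers4* was 2.53% ± 0.612 and 1.37% ± 0.599, and that of *Cers6* was 0.556% ± 0.102 and 0.363% ± 0.083. In icosapent ethyl-treated mice, *Cers2* took 78.0% ± 1.44 and *Cers5* 19.5% ± 0.767, both without overlap with LFD mice and overlapping with HFD mice. In CPM, by contrast, *Cers2* and *Cers5* of both diet groups overlapped with LFD mice. How often such shares do not overlap among other genes was not computed, so no background stands beside them. In 2-sided exact permutation tests of the 4 shares in 3 comparisons, chosen after the data were seen, the lowest p was 0.0286, the smallest that 4 against 4 mice allow. This p was reached by *Cers2* and *Cers5* against LFD mice in both diet groups and by *Cers6* in HFD versus LFD mice, and it was 0.0686 after adjustment over the 12 tests, so that none passed. As no p can be below 0.0286, none could have passed unless more of the 12 tests had reached it. The shares of a mouse have a fixed total, most of it held by *Cers2* and *Cers5*, so a rise of 1 share lowers the others. These tests are therefore not independent, and the LFD mice are shared by both comparisons. The directions were the same with the longest coding transcript as length, where the total covered only *Cers2*, *Cers4*, *Cers5*, and *Cers6*. They were also the same without any single mouse.

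Whether icosapent ethyl altered the members on the HFD background was asked by comparing the icosapent ethyl-treated with the HFD mice. *Acer2*, which yields sphingosine in the Golgi, had the lowest p of the members. It was at 27.4, 18.5, 22.3, and 22.3 CPM in icosapent ethyl-treated mice 1 to 4, against 26.3 to 38.5 CPM in HFD mice. Only treated mouse 1 reached into the HFD range, where it was above HFD mouse 1, and treated mouse 2 was the lowest of all 12 mice. The means were 22.6 ± 3.67 and 32.9 ± 5.47 CPM, a log2 fold change of -0.54 with an SE of 0.16 (edgeR, unadjusted p = 0.00819), and the adjusted p was 0.99975. *Acer2* ranked 21 of 15913 genes by p in a comparison in which 0% of genes had an adjusted p below 0.05 and 1.39% an unadjusted p below 0.05. With the replicate number as a block, the log2 fold change of *Acer2* was -0.54 (edgeR, adjusted p = 0.889).

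No other member had an unadjusted p below 0.05 in this comparison. *Sptlc1*, *Sptlc2*, and *Cers2*, which were higher in HFD than in LFD mice, had log2 fold changes of -0.12, -0.094, and -0.14 after icosapent ethyl, and *Cers4* and *Cers6* had 0.16 and 0.27. The HFD mice are shared by both comparisons, so these signs are not independent of those against LFD mice. *Cers4* was at 24.4, 30.9, 23.6, and 15.1 CPM in icosapent ethyl-treated mice 1 to 4, and mouse 4 was the lowest of all 12 mice. *Sptlc2* was at 186, 192, 184, and 201 CPM, overlapping with both other groups. *Cers6* was at 5.84, 5.43, 4.20, and 4.39 CPM, likewise overlapping with both. For *Cers5*, *Acer3*, *Asah1*, and *Asah2* the log2 fold changes were between -0.054 and 0.0504, with 95% intervals that reached from -0.28 to 0.18 (*Asah1*) and from -0.18 to 0.29 (*Asah2*).

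Against LFD mice, the icosapent ethyl-treated mice again had a lower mean of *Cers4*, 23.5 ± 6.499 against 34.1 ± 4.70 CPM. The log2 fold change was -0.54 with an SE of 0.20 (edgeR, unadjusted p = 0.0256, adjusted p = 0.303), and treated mouse 2 lay above LFD mouse 7. *Cers4* was the only member with an unadjusted p below 0.05 here, beside 14.0% of the 15935 genes tested, and 0% of genes had an adjusted p below 0.05. With DESeq2, 0 members passed in this comparison, beside 2.69% of all genes, and 0 in that with HFD mice, beside 0.0268%. *Cers2* had 0.17 and *Sptlc2* 0.14 as log2 fold changes, with 95% intervals of -0.086 to 0.43 and -0.048 to 0.33. *Acer2* had -0.26 with an interval of -0.73 to 0.21. The LFD mice are shared with the first comparison.

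Of the members, 6 varied together with at least 1 other member between mice of the same group. Over the 12 mice, deviations of log2 CPM from the group means were correlated for each of the 45 pairs of members, with p-values from 2-sided exact permutation within groups. Adjusted over the pairs, 11 pairs passed 0.05. Their weakest r was 0.68 in size, and 14.5% of all pairs among 16262 genes had an r at least as large, so that shared variation was common beyond the members. That share counts pairs by the size of r alone, not by p. By that count *Sptlc2* with *Cers5* (r = 0.80), *Asah1* (0.72), and *Sptlc1* (0.71) would be added to the 11 pairs. *Cers2*, *Cers5*, *Asah1*, and *Sptlc1* varied in the same direction in all 6 pairs among them, and *Cers4* moved opposite to each of these 4 genes. *Sptlc1* with *Acer2* was the remaining pair.

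**Figure D3:**
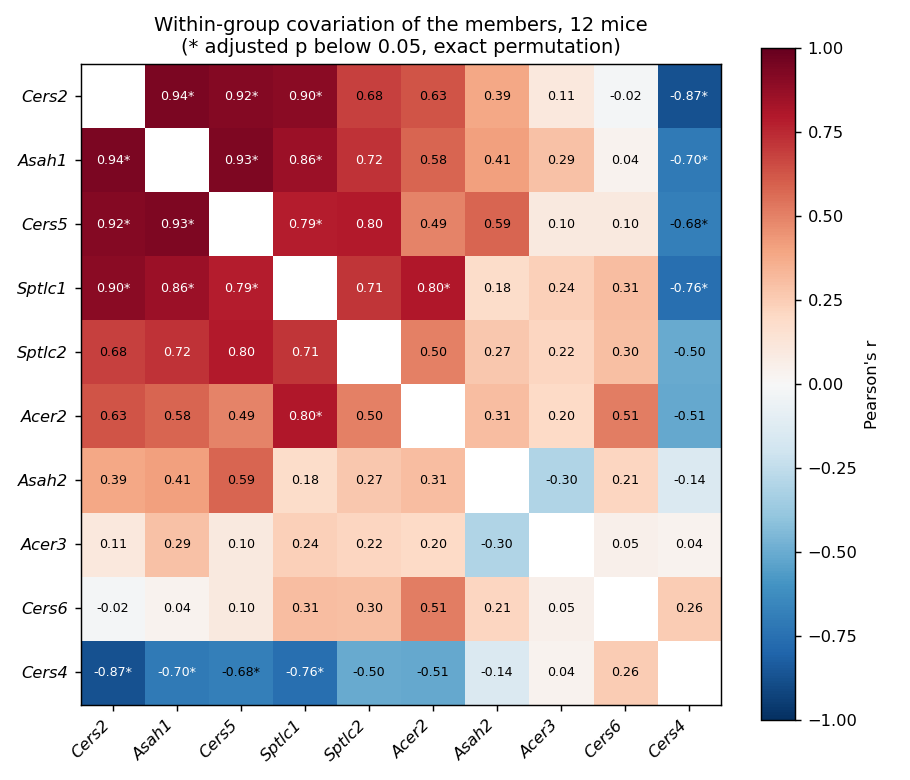
Pearson's r between members over 12 mice, computed on deviations of log2 CPM from the group means; red is positive, blue negative, and an asterisk marks an adjusted p below 0.05 (exact permutation within groups). *Cers2*, *Asah1*, *Cers5*, and *Sptlc1* form a positive block, and *Cers4* is negative against all 4.

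The closest pair was *Cers2* and *Asah1*, with r = 0.94 (exact permutation, p = 7.23e-05, adjusted p = 0.00326; Spearman's rho = 0.95, p = 0.000145, adjusted p = 0.00651). That p of 7.23e-05 is the smallest that 13824 orders can give. *Cers5* correlated with *Asah1* at r = 0.93 (exact permutation, p = 0.000145, adjusted p = 0.00326) and with *Cers2* at r = 0.92 (exact permutation, p = 0.000362, adjusted p = 0.00543). *Cers4* correlated with *Cers2* at r = -0.87 (exact permutation, p = 0.000651, adjusted p = 0.00586; rho = -0.86, p = 0.000651, adjusted p = 0.00651). Without the 2 mice farthest from the median of the first gene, r was 0.92 for *Cers2* with *Asah1* and -0.91 for *Cers2* with *Cers4*, and it stayed at 0.5 or more in size for all 11 pairs. By Spearman's rho, the pairs of *Sptlc1* with *Asah1*, *Acer2*, and *Cers5* missed the adjusted threshold (adjusted p = 0.0781, 0.109, and 0.149, exact permutation). The number of pairs past the threshold was between 4 and 11 when each mouse was left out in turn, with 4 without HFD mouse 3 or LFD mouse 7 and 5 without HFD mouse 1, 2, or 4, and all 11 pairs kept their sign each time. *Cers6*, *Acer3*, *Asah2*, and *Sptlc2* were in no pair past the threshold, the closest being *Sptlc2* with *Cers5* at r = 0.80 (exact permutation, p = 0.0219, adjusted p = 0.0822).

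Within each group, the mice with most *Cers2* had the least *Cers4*. *Cers2* was highest and *Cers4* lowest of the group in LFD mouse 7, in HFD mouse 4 (nearly equaled by HFD mouse 3), and in icosapent ethyl-treated mouse 4. At the other end, LFD mouse 2 (nearly equaled in *Cers4* by LFD mouse 6), HFD mouse 1, and treated mouse 2 had the least *Cers2* and the most *Cers4* of their groups. The level of *Cers2* per kilobase was between 22.2 times that of *Cers4* in LFD mouse 2 and 88.4 times in HFD mouse 4.

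These members moved with markers of the cortex. The mean log2 CPM of the 6 adrenocortical markers, used as a score and centered within groups, correlated with *Cers2* at r = 0.99 (exact permutation, p = 0.000145, adjusted p = 0.00289 over 20 relations; rho = 0.97, p = 0.000217, adjusted p = 0.00386). It correlated with *Asah1* at 0.93, with *Cers5* at 0.91, with *Sptlc1* at 0.87, and with *Cers4* at -0.86, and these were the 5 members past an adjusted p of 0.05. Of all 16262 genes, 13.7% had a permutation p with this score at or below the highest among these 5. In each group the mouse with the highest score had the lowest TMM factor (0.955 in LFD mouse 7, 0.883 in HFD mouse 3, and 0.920 in treated mouse 4), and the part of scaling in these relations was not tested. For *Asah1* the exact permutation p was 0.000362 (adjusted p = 0.00362; rho = 0.97), and for *Cers4* it was 0.000723 (adjusted p = 0.00362; rho = -0.87). Without LFD mice 2 and 5, which were farthest from the median score, r was 0.99 for *Cers2* and -0.92 for *Cers4*. *Cers6* had r = -0.057 (exact permutation, p = 0.884) and *Acer3* r = 0.10 (exact permutation, p = 0.763) with this score. The score of the 7 chromaffin markers correlated past the threshold with 1 member, *Sptlc2*, at r = -0.81 (exact permutation, p = 0.00412, adjusted p = 0.0137; rho = -0.80, p = 0.00528, adjusted p = 0.0211), beside 4.52% of all genes with a p as low, and with *Cers4* at r = 0.59 (exact permutation, p = 0.0476, adjusted p = 0.119). Both scores were chosen after the data were seen, and genes and scores of a mouse share its library and scaling.

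**Figure D4:**
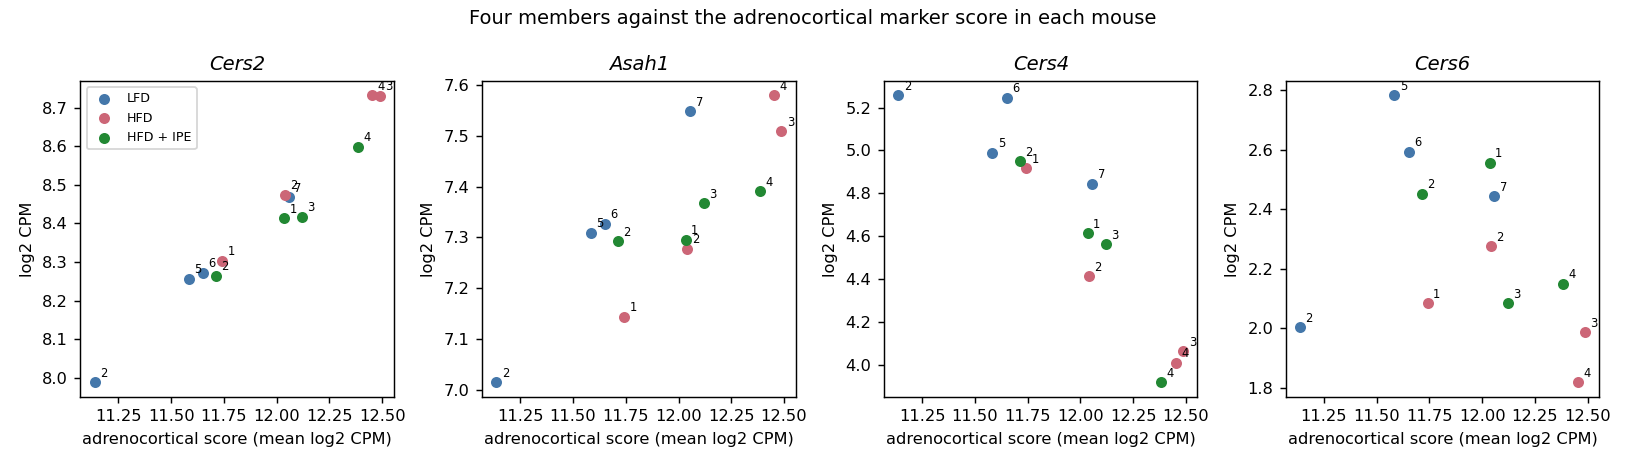
Log2 CPM of *Cers2*, *Asah1*, *Cers4*, and *Cers6* against the adrenocortical score (mean log2 CPM of 6 markers) in each of the 12 mice, colored by group and labeled by replicate number; axes do not start at 0. Within groups, *Cers2* tends to increase and *Cers4* to decrease along the score, while *Cers6* had r = -0.057. The order is not strict: *Cers4* was higher in LFD mouse 6 than in LFD mouse 5, and in HFD mouse 3 than in HFD mouse 4, despite the higher score.

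Levels of these markers were also compared between the diet groups. All 6 adrenocortical markers had a higher mean in HFD than in LFD mice, with 0 past an adjusted p of 0.05 (edgeR) and 5 at an unadjusted p below 0.05, and their summed level was 28026 to 51536 CPM in LFD, 40240 to 76443 CPM in HFD, and 40789 to 70658 CPM in icosapent ethyl-treated mice. All 7 chromaffin markers had a lower mean in HFD mice, with 0 past the adjusted and 5 past the unadjusted threshold, and summed to 4980 to 17678, 2436 to 7840, and 4429 to 8594 CPM. Of the 7 macrophage markers, 6 had a lower and 1 a higher mean in HFD mice. Of the lower ones, 5 had an unadjusted p below 0.05, and 3 passed the adjusted threshold (*Cd68*, *Lyz2*, and *C1qa*). The 7 together summed to 640 to 968 CPM in LFD, 451 to 547 CPM in HFD, and 496 to 633 CPM in icosapent ethyl-treated mice. Beside these counts, 1.45% of all genes tested passed the adjusted threshold and 24.8% had an unadjusted p below 0.05. None of the adrenocortical, chromaffin, and macrophage markers was at 0 in any mouse. The 5 capsule and mesothelial markers summed to 207 to 340 CPM in LFD and 114 to 184 CPM in HFD mice. Of these, 4 were tested, all with negative log2 fold changes (0 past the adjusted and 1 past the unadjusted threshold). Between LFD and HFD mice, summed adipocyte markers overlapped (132 to 236 and 185 to 251 CPM). So did summed endothelial markers (885 to 1348 and 942 to 1237 CPM). With the adrenocortical score as a covariate, added after the data were seen, the HFD versus LFD log2 fold change was 0.012 for *Cers2*, -0.28 for *Cers4*, 0.14 for *Sptlc2*, and -0.012 for *Sptlc1* (edgeR, adjusted p = 0.934, 0.300, 0.284, and 0.939). With the chromaffin score instead, it was 0.19, -0.40, 0.13, and 0.068 (edgeR, adjusted p = 0.778, 0.678, 0.730, and 0.908). The markers in both scores themselves differed in mean between the diets, and *Cers2* followed the adrenocortical score at r = 0.99 within groups. These fits therefore cannot tell cell make-up from expression per cell. The part of cell make-up in the members' differences was not tested.

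Other genes of sphingolipid metabolism gave a comparison for the members. Of 56 listed genes, 48 were tested, and 1 passed an adjusted p of 0.05 in HFD versus LFD mice, beside 1.45% of all genes tested. The sphingosine 1-phosphate receptor *S1pr2* rose from 33.3 ± 5.23 to 64.9 ± 9.12 CPM on the HFD (log2 fold change 0.95, SE 0.14, edgeR adjusted p = 0.0376). It was at 28.0 to 38.9 CPM in LFD and 57.5 to 77.8 CPM in HFD mice, without overlap. Of the listed genes, 4 were higher in HFD mice without overlap, beside 7.71% of all genes tested. The number of listed genes past the threshold was between 0 and 3 when each mouse was left out in turn, and 0 without HFD mouse 2, 3, or 4 or LFD mouse 5, 6, or 7 and with library totals as scaling.

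At the first step of synthesis, 0 of the 5 listed genes tested passed the threshold. *Sptssa*, a small activating subunit that binds the *Sptlc1* and *Sptlc2* proteins, was lower in every HFD mouse than in every LFD mouse (74.8 ± 5.30 against 91.7 ± 4.41 CPM, log2 fold change -0.30, SE 0.076, edgeR adjusted p = 0.0739), whereas *Sptlc2* was higher in every HFD mouse. *Degs1*, the desaturase that turns dihydroceramide into ceramide after the ceramide synthases have acted, was at 90.6 ± 6.74 against 111 ± 10.95 CPM, also without overlap (log2 fold change -0.30, SE 0.097, edgeR adjusted p = 0.113). *Sptssa* and *Degs1* were the 2 listed genes that were lower in HFD mice without overlap, beside 5.82% of all genes tested. Downstream, the sphingomyelin synthase *Sgms1* was at 113 ± 25.4 in HFD and 69.5 ± 11.01 CPM in LFD mice (log2 fold change 0.69, SE 0.17, edgeR adjusted p = 0.0722). Among the glycosphingolipid genes reported, the lactosylceramide synthase *B4galt6* had the lowest p, at 16.6 ± 5.69 in HFD and 27.3 ± 8.24 CPM in LFD mice, with overlap (log2 fold change -0.73, SE 0.30, edgeR adjusted p = 0.177). In edgeR, 0 listed genes passed the threshold in icosapent ethyl-treated versus HFD mice, as did 0% of all genes. At an unadjusted p below 0.05 there was 1 listed gene, beside 1.39% of all genes. With DESeq2, 0 listed genes passed the adjusted threshold, beside 0.0268%. Against LFD mice 0 passed in edgeR, as did 0% of all genes, and 1 passed in DESeq2, beside 2.69%. At an unadjusted p below 0.05 in edgeR there were 1 higher and 4 lower listed genes, beside 14.0% of all genes.

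**Figure D5:**
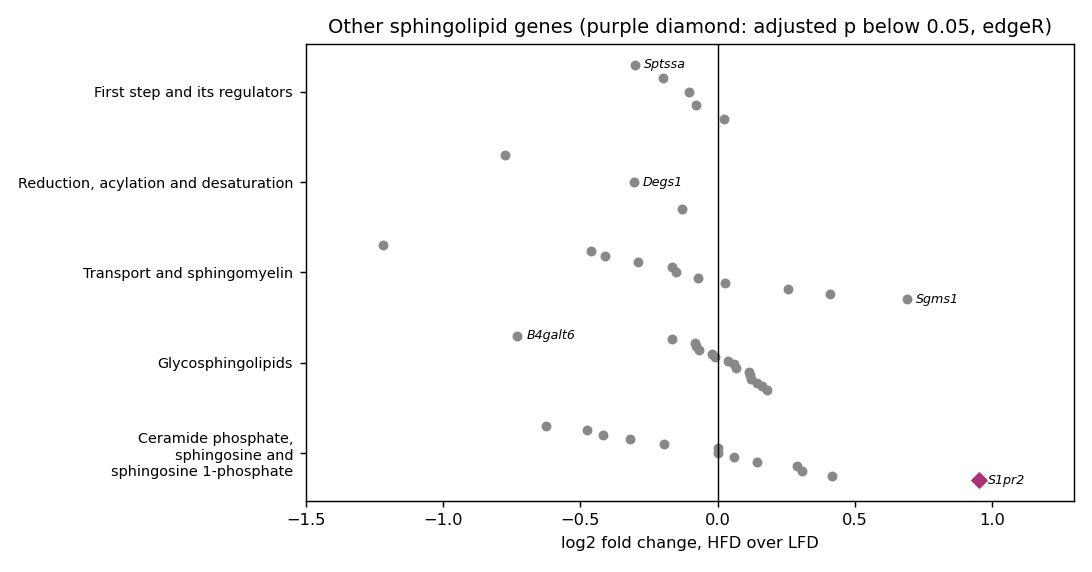
Log2 fold changes (HFD over LFD, edgeR) of the 48 other sphingolipid genes tested, by role; each point is a gene, and the purple diamond is the gene past an adjusted p of 0.05, *S1pr2* (0.95). *Sptssa*, *Degs1*, *Sgms1*, and *B4galt6* are labeled as the genes with the lowest p of their groups.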

How the data were processed

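RNA-seq counts of the adrenal cortex of 12 mice, 4 per group, were analysed. The authors trimmed adaptors with cutadapt, aligned reads of strand-specific libraries to GRCm38 with STAR, and counted them on the GENCODE M12 genes with HTSeq 0.6.1p1 in reverse-strand mode (minimum alignment quality 20). The deposited values are raw read counts per gene, without normalization. Symbols, coordinates, and exon lengths came from the later GENCODE release M21, which names 49326 of the 49585 identifiers. Groups were taken from the labels. No 2 libraries were copies of each other (lowest chi-square per degree of freedom 26.5 over 66 pairs).

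The quasi-likelihood F test of edgeR 4.0.16 (R 4.3.3) was applied to the 8 mice of each comparison, after filterByExpr with a minimum count of 10 and TMM scaling, with robust dispersions, with Benjamini-Hochberg adjustment over all genes tested and a threshold of 0.05. SEs were derived from the log2 fold change and F. The alternatives were the Wald test of DESeq2 1.42.0, its size factors, a fit of all 12 mice, library totals, no filter or a stricter one (10 counts per mouse), a replicate block, and leaving out each mouse. Pairs of members were correlated on log2 CPM (prior count 2, alternatively 0.5). The procedure was tested on simulated data. The members and gene lists were chosen with earlier results of these data known. All 10 members are named, beside listed sphingolipid genes past the threshold, the gene with the lowest p in each listed group and *Degs1*, and the 3 genes most like the member with the lowest p. Of the lists, 1 gene is not reported here. Marker scores as covariates and the synthase shares were added after the data were seen. Each mouse is 1 library. The part of counting error in the spread between mice was not separated. It weighs most for members with few counts or a narrow range, such as *Cers6* and *Acer3*.

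HFD and icosapent ethyl-treated mice both carry the numbers 1 to 4. The correlations between mice of equal number, after subtraction of the group means, were 0.240, 0.116, 0.340, and 0.632, and pairs with different numbers reached 0.598 (HFD mouse 1 with treated mouse 2). The labels do not say what the number denotes. The criterion that every pair correlate above 0.1 was met, and on that ground the block was used as an alternative fit. Some pairs with different numbers met it as well, so it does not show that equal numbers denote pairs. The fit reported was unpaired.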

Additional observations from a re-analysis of the deposited data

How the results depend on the processing

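No member passed the threshold in any comparison under any alternative, except *Cers4* in HFD versus LFD mice with DESeq2 (1 member) and without HFD mouse 1 (0 to 1 over the mice left out). The number of all genes called in HFD versus LFD mice, 230, was 1965 with DESeq2, 84 with library totals, 556 with all 12 mice in 1 fit, 0 with the chromaffin score as covariate, 1182 with the adrenocortical score, and 0 to 918 without single mice. For listed sphingolipid genes, 1 in the fit reported, it was 5, 0, 2, 0, 5, and 0 to 3. With icosapent ethyl, DESeq2 called 7 genes against HFD mice, and against LFD mice 417 genes and 1 listed gene. The fit of all 12 mice called 2 genes against LFD mice, and leaving out single mice 0 to 1 genes. The replicate block (696 against 221 genes at an unadjusted p below 0.05 in icosapent ethyl-treated versus HFD mice) called 0 members and 0 genes and changed no other call.

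Library totals lowered the median of all genes in HFD versus LFD mice (-0.11 against -0.015). Signs turned for log2 fold changes of up to 0.27 in size. In HFD versus LFD mice these were *Acer3* (-0.092 with library totals, -0.00067 with 10 counts in every mouse, -0.049 with the chromaffin and -0.0046 with the adrenocortical score, -0.019 to 0.046 without single mice), *Asah1* (-0.034 with library totals, -0.066 and -0.23 with the scores, -0.0094 to 0.15), *Asah2* (0.051 with the chromaffin score, -0.11 to 0.035), and *Sptlc1* and *Acer2* (-0.012 and -0.054 with the adrenocortical score). In icosapent ethyl-treated versus HFD mice they were *Cers5* (0.054 with library totals, 0.023 and 0.0199 with the scores, -0.042 to 0.027), *Asah1* (0.021 with library totals, 0.0069 with the adrenocortical score, -0.12 to 0.019), *Acer3* (0.0091 with library totals), *Cers4* (-0.073 with the chromaffin score, -0.0014 to 0.38), and *Asah2* (-0.011 with the chromaffin score, -0.023 to 0.093). Against LFD mice they were *Asah1* (-0.014 with library totals, -0.073 and -0.16 with the scores, -0.061 to 0.12), *Asah2* (-0.011 with library totals, -0.14 with the adrenocortical score, -0.059 to 0.085), *Sptlc1* (-0.026 and -0.072 with the scores, -0.0050 to 0.11), and *Cers2* (-0.055 with the adrenocortical score). In all, 44 of 598 values turned, and the cause was not tested. The 11 pairs of members stayed 11 with a prior count of 0.5 and were 4 to 11 without single mice. With 4 mice per group, intervals of most members spanned 0, and small differences were not detectable.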
